A study of Mus musculus with 4 samples.

Results

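The ADAM genes encode membrane proteases, and 7 of them are described here in cultured mouse mammary tumour cells: Adam8, Adam9, Adam10, Adam12, Adam15, Adam17 and Adam19. They were taken by symbol from a deposited table of 50679 genes, and all 7 were found. Adam12 was chosen from its own values in this table, because both 211F libraries lay far above both WT libraries, by ratios of 8.73 to 10.8. Its levels are therefore given as a description with no test, and the other 6 were listed as ADAM genes.

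RNA was sequenced from 4 libraries. Of these, 2 came from tumour cells of PCNA 211F/PyMT mice (Y211F in the table's headers) and 2 from tumour cells of PCNA WT/PyMT mice. PyMT, the polyoma middle T oncogene, drives mammary tumours in both groups, and PCNA is the sliding clamp of DNA replication. Tumours were taken at 10 weeks of age, dissociated, captured with an antibody to the epithelial protein EpCAM, and then grown in 10% serum after plating (density 100000). The sources used here do not give the promoter that drives PyMT, any pooling of animals or the number of passages. The study calls the 2 libraries of a genotype independent biological repeats, without saying that they came from separate animals. The p-values below measure the spread between these libraries.

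ADAM proteins sit in the plasma membrane with a prodomain, a metalloprotease domain and a disintegrin domain outside the cell. Members with an active protease cut other membrane proteins close to the cell surface, a step called shedding. It releases growth factors such as the ligands of the EGF receptor, cuts Notch receptors and removes adhesion proteins such as E-cadherin. In the mammary gland, ADAM17 releases amphiregulin during duct growth. In humans, ADAM12 is raised in many breast tumours, and in mice loss of Adam12 slows PyMT mammary tumours.

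Proteolytic activity of an ADAM requires 3 histidines that hold a zinc ion and a glutamate that activates water. The coding bases of this zinc-binding histidine motif are shown because they are what marks these 7 genes as protease genes. Each run gives 33 bases on the coding strand, 5′ to 3′, from the longest coding transcript in GENCODE M21 (GRCm38). The capitals mark the codons of the 3 histidines and of the glutamate.
Adam8: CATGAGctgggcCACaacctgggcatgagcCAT
Adam9: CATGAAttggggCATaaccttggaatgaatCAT
Adam10: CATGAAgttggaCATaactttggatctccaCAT
Adam12: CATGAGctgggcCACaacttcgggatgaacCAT
Adam15: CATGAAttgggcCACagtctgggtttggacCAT
Adam17: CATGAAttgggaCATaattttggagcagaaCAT
Adam19: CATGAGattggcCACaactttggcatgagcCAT

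The motif begins at codon 348 of Adam12 and at codon 424 of Adam17, the latest of the 7. Over these bases Adam12 was identical to Adam8 in 87.9% and to Adam19 in 84.8%, against 60.6% for Adam10. Adam10 and Adam17, the general sheddases, shared 78.8% with each other. The search read the coding frame, with 1 transcript for each of 21471 genes, and found the motif in 68 genes (0.317%). Of 26 further ADAM genes searched, 13 held it and 13 did not.

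Libraries of a genotype were not the most alike. Pearson's r over the 12767 tested genes was 0.92 between 211F 2 and WT 1, against 0.838 between the 211F libraries and 0.748 between the WT libraries. The 12 epithelial markers, such as Epcam, Cdh1 and keratin genes, summed to 3304 FPKM in 211F 1 and 3593 FPKM in 211F 2, against 3198 FPKM in WT 1 and 7.41 FPKM in WT 2. Keratin genes gave most of the sum in 211F 1, with Krt14 at 1297 FPKM and Krt5 at 1029 FPKM. Of the markers other than keratins, all but Cldn4 were lower in 211F 1 than in 211F 2 and WT 1. Epcam stood at 77.3 and 450 FPKM in 211F and 444 and 0.893 in WT. FPKM scales fragments to transcript length and to the mapped fragments of the library, so levels of different genes can be compared. The 10 mesenchymal markers, such as Vim and Fn1, summed to 5051 and 60.5 FPKM in the 211F libraries and to 372 and 3475 in the WT libraries. WT 2 and 211F 1 were thus the mesenchymal-marker-high libraries, and WT 2 had epithelial markers near 0 in spite of the capture. WT 2 also had the highest sum of fibroblast markers, 1080 FPKM. Col1a1 stood there at 437 FPKM, against at most 2.70 in any other library, though the fibroblast marker Postn was at 2.04 FPKM. Whether WT 2 held fibroblasts or tumour cells in a mesenchymal state was not tested. The table holds no counts. Low values of 1971 long genes with a single transcript fell on steps, with 83.8% to 89.7% within 0.1 of a whole fragment. A fragment in 1 kb was worth 0.0261 and 0.0303 FPKM in the 211F libraries and 0.0285 and 0.0166 in the WT libraries, and 3 fragments at most 0.0910 FPKM.

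Adam12 encodes meltrin alpha, a protease of fusing muscle cells and of mesenchymal cells that cuts IGF-binding proteins and EGF-family ligands. The gene (ENSMUSG00000054555) lies on chromosome 7 (GRCm38, 133883199 to 134232146, minus strand) and spans 348.9 kb, with 23 exons in its main transcript of 7675 bp. It stood at 49.0 FPKM in 211F 1 and 50.0 FPKM in 211F 2, against 5.61 FPKM in WT 1 and 4.65 FPKM in WT 2. The groups did not overlap, and the libraries of each genotype lay close together. The means were 49.5 ± 0.705 FPKM in 211F and 5.13 ± 0.682 in WT (SD, n = 2 each), a ratio of 9.65. On the log2(FPKM + 1) scale, which understates changes of low genes, 211F minus WT was 3.05 ± 0.26 (SE). If all fragments came from the main transcript, the steps above put about 14396 and 12652 fragments behind the 211F values and 1509 and 2154 behind the WT values. In bulk RNA, fewer cells of a type and less RNA per cell cannot be told apart.

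Within each genotype, Adam12 was alike in libraries with unlike cell state markers. The choice of Adam12 all but fixed this likeness, and the part of the cell state in its level was not tested. The low WT values came from WT 1, with high epithelial markers, and from WT 2, with hardly any. The 211F values came from 211F 1, which held both marker sets, and 211F 2, in which Vim was at 1.86 FPKM. The larger gap between libraries of a genotype was 0.23 log2, a value that the choice of Adam12 used. Exons of Adam12 share no bases with another annotated gene. Markers of skeletal muscle, where Adam12 is also used, were near 0 outside 211F 1, and Myog and Myf5 were listed at 0 in every library. The 7 summed to 13.5 and 0.122 FPKM in 211F and 0.278 and 0.245 in WT, and Acta1 gave 13.4 of the sum in 211F 1.

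**Figure D1:**
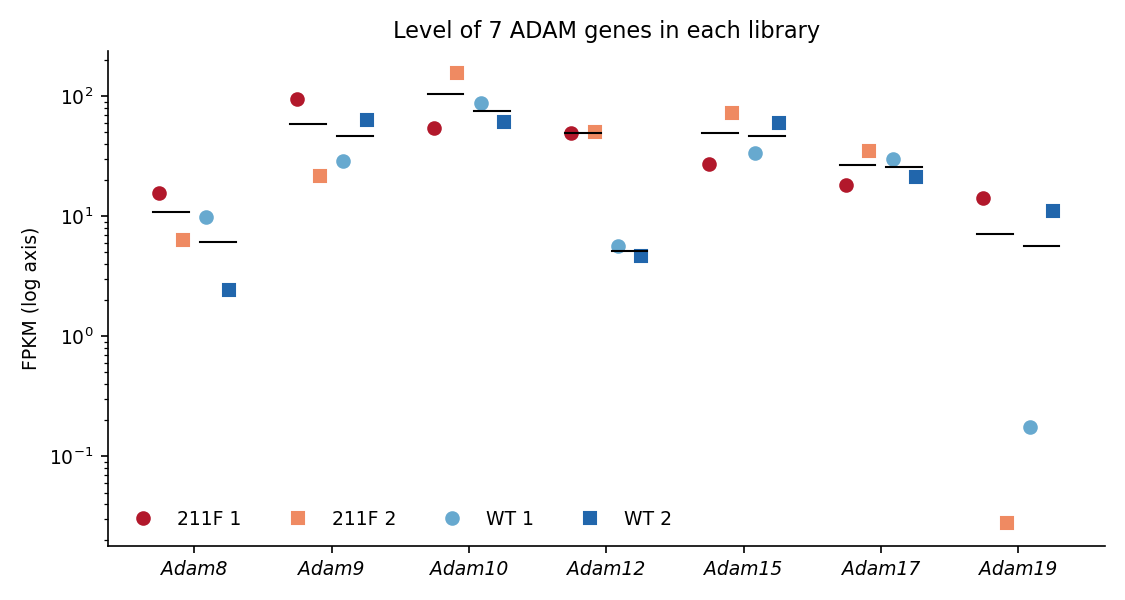
Level of each ADAM gene in FPKM on a log axis, with 1 point per library (211F 1, 211F 2, WT 1, WT 2) and a black line at the mean of each genotype. Adam12 has both 211F points near 50 FPKM and both WT points near 5 FPKM, while the points of the other 6 genes overlap between genotypes.

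Adam9 and Adam19 were high where mesenchymal markers were high. Adam9, a widely expressed sheddase (chromosome 8, 24949611 to 25016927, minus strand), stood at 94.5 and 21.5 FPKM in 211F 1 and 211F 2, against 28.8 and 63.6 FPKM in WT 1 and WT 2. The groups overlapped, and the highest value of each genotype came from 211F 1 and WT 2. Adam19, meltrin beta, which cuts neuregulin and acts in heart and nerve development (chromosome 11, 46055992 to 46147343, plus strand), stood at 14.2 and 0.0278 FPKM in 211F, against 0.176 and 11.1 FPKM in WT. It was near 0 in 211F 2, with about 6 fragments, and low in WT 1, with about 39. Highest over lowest, Adam19 spanned a ratio of 512 and Adam9 a ratio of 4.40. The mesenchymal transcription factor gene Zeb1, named after its values were seen, was high and low in the same libraries as Adam19, at 41.6 and 0.996 FPKM in 211F and 0.657 and 52.3 in WT. Of the other such factors on the marker list, Zeb2 did likewise, at 25.3 and 1.48 FPKM in 211F and 1.71 and 26.1 in WT. Twist1 was near 0 in no library (7.88 to 23.0 FPKM). Snai2 went otherwise, at 27.0 and 17.2 FPKM in 211F and 31.1 and 27.3 in WT. The part of the cell state in the levels of Adam9 and Adam19 was not tested.

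Adam10 and Adam17, the main sheddases of Notch receptors and of EGF-family ligands, ran the other way within each genotype. Adam10 (chromosome 9, 70678997 to 70780229, plus strand) stood at 54.4 and 155 FPKM in 211F 1 and 211F 2, against 87.8 and 61.2 FPKM in WT 1 and WT 2. Adam17, the TNF-alpha converting enzyme (chromosome 12, 21323509 to 21373632, minus strand), stood at 18.0 and 34.9 FPKM in 211F, against 29.9 and 21.2 FPKM in WT. Both were higher in 211F 2 than in 211F 1 and higher in WT 1 than in WT 2, and for both the genotypes overlapped. Adam17 was the steadiest of the 7, with a ratio of 1.94 between its highest and lowest library.

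Adam15 and Adam8 followed neither order. Adam15, whose product binds integrins and cuts E-cadherin (chromosome 3, 89338542 to 89349996, minus strand), stood at 27.0 and 71.8 FPKM in 211F and 33.3 and 59.8 FPKM in WT. Its high libraries were 211F 2 and WT 2, the second of each genotype. Adam8, a protease of myeloid cells and of invasive tumour cells (chromosome 7, 139978932 to 139992562, minus strand), stood at 15.5 and 6.28 FPKM in 211F and 9.86 and 2.44 FPKM in WT. Its high libraries were 211F 1 and WT 1. Of 8 leukocyte and myeloid markers, Cd14, Cd68 and Csf1r passed the filter. Ptprc, the pan-leukocyte gene, was at most 0.0180 FPKM, and Adgre1 at most 0.0296. The macrophage gene Cd68 stood at 2.56 and 1.27 FPKM in 211F and 0.976 and 3.84 in WT, and Csf1r at 1.39 and 0.996 FPKM in 211F and 1.30 and 0.312 in WT. The sum of the 8 myeloid markers was 8.08 and 15.0 FPKM in 211F and 69.8 and 12.2 in WT. Most of the sum in WT 1 was Cd14, a gene of monocytes and macrophages. Cd14 stood at 3.55 and 12.6 FPKM in 211F and 67.2 and 7.53 in WT, and its part in the Adam8 level was not tested.

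For none of these 6 genes was the difference between the genotypes larger than the spread of its libraries. The differences were 0.84 ± 0.78 for Adam8, 0.08 ± 0.86 for Adam9 and 0.32 ± 0.59 for Adam10 (SE, log2 scale). They were -0.02 ± 0.60 for Adam15, -0.00465 ± 0.43 for Adam17 and 0.07 ± 1.85 for Adam19. Each had an adjusted p of 0.9999 in the limma test, which covered the 12767 genes that averaged 1 FPKM or more. Over all these genes limma called 0 higher in 211F and 0 lower (0% and 0%), with 241 at an unadjusted p under 0.05. Those 241 are a smaller share of the 12767 genes than the 0.05 that a test gives with no difference. All 7 ADAM genes passed the filter of 1 FPKM. Groups that did not overlap were found in 1 of the 7, Adam12, which was chosen for it. Among all tested genes, 26.8% had groups that did not overlap, 15.2% with 211F higher and 11.6% with 211F lower. With upper-quartile scaling that balance turned, to 1600 genes higher and 1777 lower, against 1935 and 1485. With 2 libraries a side, the smallest two-sided p of an exact permutation test is 0.333, so none was run.

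**Figure D2:**
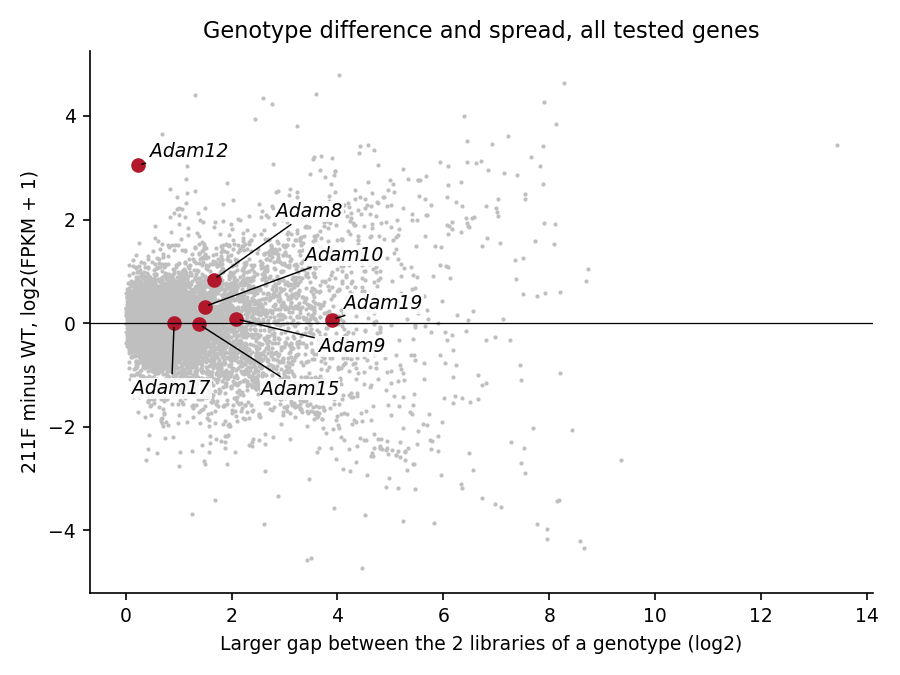
Difference of 211F minus WT on the log2(FPKM + 1) scale against the larger gap between the 2 libraries of a genotype, with 1 grey point for each of 12767 tested genes and red points for the ADAM genes. Adam12 has a difference of 3.05 with a gap of 0.23, and the other 6 have differences of -0.02 to 0.84 with gaps of 0.92 to 3.89.

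The make-up of the ADAM transcript pool differed by library. The 7 genes summed to 273 FPKM in 211F 1 and 339 FPKM in 211F 2, against 195 FPKM in WT 1 and 224 FPKM in WT 2. Without Adam12 the sums were 224 and 289 FPKM in 211F and 190 and 219 in WT. Adam12 made up 18.0% and 14.7% of the sum in 211F, against 2.87% and 2.07% in WT. It was the third most abundant of the 7 in both 211F libraries and the sixth in both WT libraries. Adam9 ranked highest in 211F 1 and WT 2, and Adam10 in 211F 2 and WT 1. By mean level in 211F the order was Adam10, Adam9, Adam12, Adam15, Adam17, Adam8 and Adam19. Of these neighbours, Adam17 and Adam8 alone were apart by more than the larger of their SDs (26.4 ± 11.9 and 10.9 ± 6.52 FPKM, n = 2). In WT the order was Adam10, Adam15, Adam9, Adam17, Adam8, Adam19 and Adam12, where Adam10 and Adam15, and Adam17 and Adam8, were apart by more than that. The last 3 averaged 5.13 to 6.15 FPKM.

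**Figure D3:**
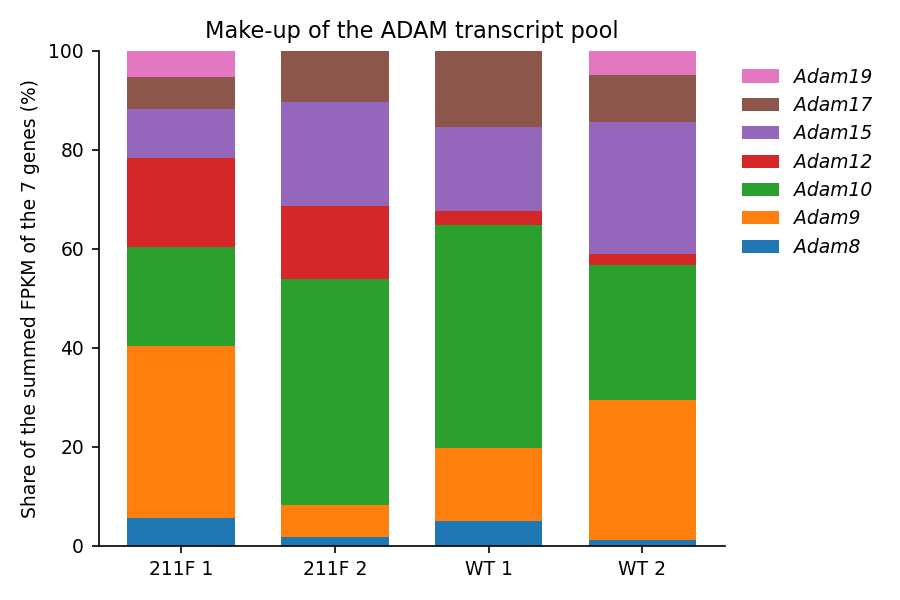
Share of each ADAM gene in the summed FPKM of the 7 genes, in percent, with 1 bar per library (211F 1, 211F 2, WT 1, WT 2). The red Adam12 segment is 18.0% and 14.7% in the 211F bars and 2.87% and 2.07% in the WT bars.

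The other ADAM genes of the table were mostly near 0. Of 26, 12 were listed at 0 in every library, and Adam23 alone reached the filter. Adam23, which lacks the zinc-binding motif and acts as an adhesion protein of neurons, stood at 11.7 FPKM in 211F 1 and 0.0388 in 211F 2, against 0.0977 and 0.144 FPKM in WT. It was thus high in 211F 1 alone. Adam28 and Adam33, which hold the motif, were at most 0.0479 and 0.0900 FPKM. The 26 genes summed to 13.2 and 1.06 FPKM in 211F and to 1.78 and 2.56 in WT, far under the sums of the 7.

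Cofactors of the sheddases were also split by library. Rhbdf1 and Rhbdf2 encode iRhom proteins, which carry ADAM17 to the cell surface, and Frmd8 stabilises that complex. Rhbdf2 stood at 5.22 and 85.7 FPKM in 211F and 56.6 and 9.80 in WT, high in the same libraries as Adam17. Rhbdf1 ranged from 39.6 to 78.3 FPKM and Frmd8 from 14.0 to 21.0 FPKM. Of the tetraspanin genes whose products escort ADAM10, 4 of 6 were tested. Tspan14 stood at 20.7 and 38.4 FPKM in 211F and 43.3 and 10.9 in WT, and Tspan5 ranged from 11.5 to 27.6 FPKM. Tspan17 was lower in both 211F libraries, at 3.19 and 0.980 FPKM against 4.44 and 12.6 in WT (-1.58 ± 0.70, SE; limma adjusted p = 0.9999). Of the tested genes of both lists, 4 had a positive and 3 a negative difference. The list medians were 0.04 and 0.03, beside 0.03 over all tested genes. With single libraries left out, the first ranged from -0.24 (without WT 2) to 0.69 (without WT 1), and was -0.05 without 211F 2 and 0.66 without 211F 1. The second ranged from -0.69 (without WT 1) to 0.34 (without 211F 1), and was -0.63 without WT 2 and -0.34 without 211F 2.

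Proprotein convertases remove the ADAM prodomain. Furin, the main one, stood at 54.6 and 63.3 FPKM in 211F and 70.1 and 41.4 in WT. Pcsk7 ranged from 15.1 to 27.5 FPKM. Pcsk6 stood at 2.27 and 60.2 FPKM in 211F and 34.6 and 1.45 in WT, and Pcsk5 was at most 0.314 FPKM. All 3 tested convertases had positive differences of 0.12 to 0.60, and limma called 0 of them. Their median of 0.20 was -0.25 without WT 2 and -0.21 without 211F 2, but 0.50 without WT 1 and 0.61 without 211F 1.

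Inhibitors of these proteases were abundant. Timp3 encodes the inhibitor of ADAM10, ADAM12 and ADAM17 that binds to the matrix. It stood at 319 and 444 FPKM in 211F, against 265 and 63.3 in WT, so that the groups did not overlap. Timp1, an inhibitor of ADAM10 and of matrix metalloproteases, stood at 416 and 69.4 FPKM in 211F and 22.6 and 402 in WT. Timp2 ranged from 212 to 477 FPKM. Reck, a membrane-bound inhibitor, was at most 3.31 FPKM and Timp4 at most 0.103. Of 4 tested inhibitors 3 had positive differences, with a median of 0.51, and limma called 0. Without WT 1 that median was -0.59, and without 211F 1 it was -0.10.

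Ligands of the EGF receptor family are the best known ADAM products, and ADAM12 and ADAM17 both cut HB-EGF. Hbegf stood at 118 and 17.5 FPKM in 211F, against 5.54 and 18.6 in WT. It was highest in 211F 1, and the groups overlapped. Areg, the gene of amphiregulin, stood at 11.3 and 32.7 FPKM in 211F and 8.41 and 0.315 in WT. Btc (betacellulin) stood at 2.77 and 5.05 FPKM in 211F and 2.65 and 0.499 in WT. Epgn (epigen) stood at 7.70 and 3.51 FPKM in 211F and 1.35 and 0.165 in WT. For Areg, Btc and Epgn the groups did not overlap, though the lowest 211F and the highest WT values of Btc were close. Ereg (epiregulin) had 5.71 FPKM in 211F 1 and was listed at 0 in 211F 2, against 1.82 and 13.6 FPKM in WT. Nrg1, a ligand cut by ADAM17 and ADAM19, stood at 59.7 and 6.92 FPKM in 211F and 3.75 and 24.3 in WT.

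Of the 7 tested ligands, 6 had a positive difference, beside 53.1% of all tested genes, and the median was 1.03 beside 0.03. With single libraries left out it was 1.12 to 1.81, with 1.67 without WT 1 and 1.81 without 211F 2. The groups did not overlap in 3 of 7, all with 211F higher, beside 15.2% of all tested genes, and limma called 0 (adjusted p = 0.9999 for each). In WT 2, where epithelial markers were near 0, Areg, Btc, Epgn and Tgfa were at their lowest. The other tested ligands went the other way. Ereg was at its highest in WT 2, at 13.6 FPKM, and Nrg1 (24.3) and Hbegf (18.6) were higher only in 211F 1. The part of the cell state in the ligand levels was not tested. Of the receptors, Egfr ranged from 19.0 to 45.3 FPKM and Erbb2 from 16.4 to 39.0 FPKM. Erbb3 stood at 2.53 and 24.1 FPKM in 211F and 26.7 and 0.0753 in WT, and Erbb4 was at most 0.0310 FPKM. All 3 tested receptors had positive differences with a median of 0.22, and limma called 0. That median was -0.32 without WT 2 and -0.21 without 211F 2, but 0.77 without WT 1 and 0.66 without 211F 1.

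**Figure D4:**
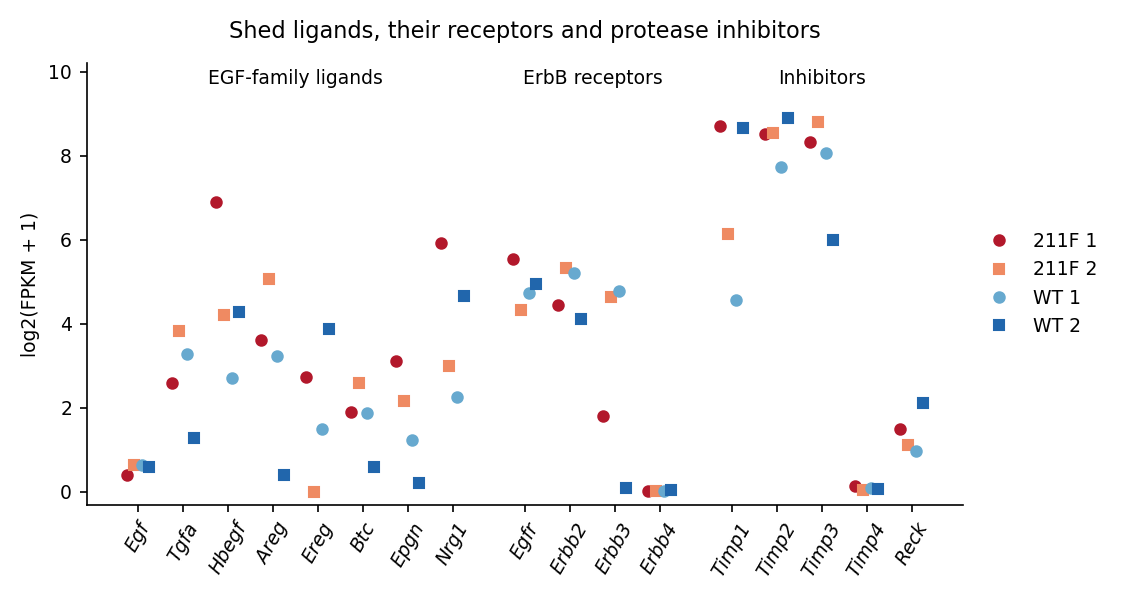
Level of EGF-family ligands, ErbB receptors and metalloprotease inhibitors on the log2(FPKM + 1) scale, with 1 point per library (211F 1, 211F 2, WT 1, WT 2). The 211F points of Areg, Btc, Epgn and Timp3 lie above their WT points, and those of Hbegf, Nrg1 and Timp1 overlap with them.

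Other ADAM substrates showed no common direction. Of 29 tested, 15 had a positive and 14 a negative difference (median 0.10), and limma called 0. The median was 0.70 without WT 1 and 0.24 without 211F 2, but 0.00292 without WT 2 and -0.00507 without 211F 1. The 3 widest positive differences were in genes near 0 in WT 2 alone, the library with hardly any epithelial markers. Col17a1, a collagen of the hemidesmosome cut by ADAM9 and ADAM17, stood at 70.3 and 153 FPKM in 211F and 112 and 0.295 in WT. Cdh1 (E-cadherin, cut by ADAM10 and ADAM15) stood at 102 and 202 FPKM in 211F and 257 and 0.533 in WT. Igfbp3, an IGF-binding protein cut by ADAM12, stood at 41.2 and 124 FPKM in 211F and 71.4 and 0.426 in WT. Cdh1 is itself one of the epithelial markers. Cxcl16, a membrane chemokine cut by ADAM10, stood at 15.2 and 0.107 FPKM in 211F and 39.3 and 11.5 in WT.

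The groups did not overlap in 6 of the 29 substrates, a share below the 26.8% of all tested genes, and these are named after their values were seen. Jag1 (a Notch ligand), Alcam (an adhesion protein) and Cd44 (the hyaluronan receptor) lay higher in 211F, and Kitl, Cx3cl1 and Tnfrsf1a lay lower. Jag1 stood at 73.2 and 25.2 FPKM in 211F and 14.8 and 4.63 in WT. Kitl, the stem cell factor shed by ADAM17, stood at 4.56 and 14.4 FPKM in 211F and 23.0 and 77.6 in WT. Igfbp5, another IGF-binding protein cut by ADAM12, was high in WT 1, at 89.4 FPKM, and at most 6.78 FPKM elsewhere.

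Partners bind the ADAM tails inside the cell or the disintegrin domain outside it. Of 15 tested, 9 had a positive and 6 a negative difference (median 0.14, or -0.03 without 211F 1, 0.08 without WT 1 and 0.22 without 211F 2), and limma called 0. Itgb1, the integrin chain that ADAM12 and ADAM9 bind, stood at 765 and 429 FPKM in 211F, against 323 and 351 in WT. Actn1, an actin crosslinker (its relative Actn2 binds the ADAM12 tail), stood at 554 and 199 FPKM in 211F, against 113 and 135 in WT. Pik3r1, a subunit of PI3-kinase that binds the ADAM12 tail, stood at 11.8 and 13.4 FPKM in 211F, against 99.1 and 18.0 in WT. In these 3 and in Src, a kinase gene named after its values were seen, at 77.5 and 53.7 FPKM in 211F and 49.7 and 41.8 in WT, the groups did not overlap. These 4 of 15 are a share near the 26.8% of all tested genes. Itgb3 was high in 211F 1 alone, at 11.0 FPKM.

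Transforming growth factor beta induces Adam12 in other cells, and ADAM12 binds its type II receptor. Of 12 genes of this pathway, 8 had positive and 4 negative differences (median 0.31), and limma called 0. Smad7, an induced inhibitor, stood at 35.1 and 22.3 FPKM in 211F, against 9.60 and 16.6 in WT. Skil, a repressor of the pathway, stood at 42.2 and 60.4 FPKM in 211F, against 39.4 and 22.1 in WT. Tgfbr3, the betaglycan receptor, stood at 6.13 and 2.80 FPKM in 211F, against 13.3 and 59.0 in WT. For these 3 genes the groups did not overlap. Tgfbr2, the receptor gene named for its binding to ADAM12, stood at 84.5 and 38.1 FPKM in 211F and 24.6 and 56.4 in WT, and its groups overlapped. In all, the groups did not overlap in 6 of 12, with 4 higher and 2 lower in 211F, beside 15.2% higher and 11.6% lower over all tested genes. The median of the list was -0.04 without 211F 1 and 0.49 without 211F 2.

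Genes with a profile like that of Adam12 were sought among all tested genes. Likeness was the root mean square difference between log2(FPKM + 1) profiles over the 4 libraries, each centred on its mean. The nearest were Tubb3 (0.38), Slfn3 (0.43), Fmnl1 (0.43), Cwh43 (0.46), Dio2 (0.49), Sema4f (0.50) and Prl2c2 (0.53). Tubb3 encodes a beta tubulin, Dio2 a thyroid hormone deiodinase and Fmnl1 a formin of the actin skeleton. Tubb3 stood at 19.6 and 32.2 FPKM in 211F, against 1.23 and 0.935 in WT. Dio2 stood at 7.25 and 8.72 FPKM in 211F, against 1.67 and 0.214 in WT. The lower 211F library lay above the higher WT library in these genes, as in Adam12. Their choice by likeness to Adam12 all but fixed this. Sema4f, a semaphorin gene, stood at 9.27 and 11.0 FPKM in 211F, against 2.35 and 0.714 in WT. Cwh43 stood at 2.94 and 6.69 FPKM in 211F and was near 0 in WT, at 0.0256 and 0.0149. Prl2c2 and Slfn3 belong to families of close copies, so reads may be shared. Of the other ADAM genes the nearest was Adam8 (1.29), with 887 tested genes nearer to Adam12.

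The genes around Adam12 did not share its difference. Of 14 protein-coding genes with a body within 1 Mb of it, 10 were tested, and their differences ranged from -1.09 (Fgfr2) to 0.16 (Uros). The next lowest difference was -0.47 (Dock1). Dock1, which begins 438.5 kb beyond its start site, stood at 13.3 and 15.5 FPKM in 211F, against 21.7 and 18.9 in WT. Fgfr2, a growth factor receptor gene, stood at 10.7 and 8.97 FPKM in 211F, against 29.1 and 16.6 in WT. Its annotated body, 130162451 to 133123350, also runs over Abraxas2 and Zranb1. Fgfr2 thus counts as a neighbour only by the far end of that long annotation. In Dock1 and Fgfr2, 2 of the 10 tested genes, the groups did not overlap, with WT higher. Among all tested genes 26.8% had groups that did not overlap, 11.6% with 211F lower. The difference of D7Ertd443e, the nearest tested gene by start site, was -0.14 ± 0.87 (SE). Bccip and Uros, on the other side, had differences of 0.08 ± 0.33 and 0.16 ± 0.38. Adam8 lies 5.76 Mb away on the same chromosome.

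**Figure D5:**
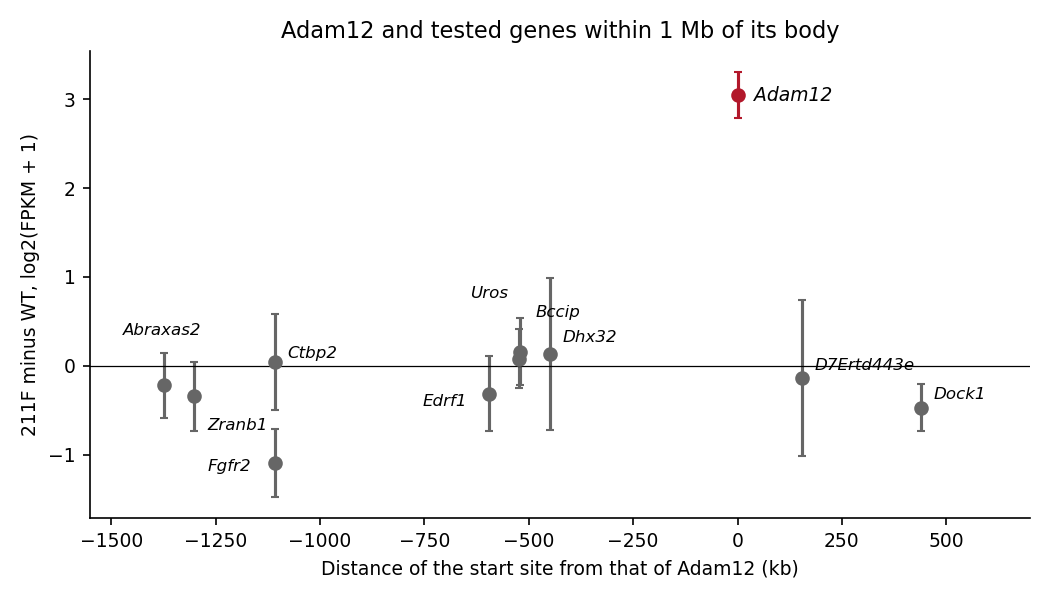
Difference of 211F minus WT on the log2(FPKM + 1) scale, with bars of 1 SE, against the distance of each start site from that of Adam12 in kb, for Adam12 (red) and the 10 tested genes with a body within 1 Mb of it (grey). Adam12 stands at 3.05 and its neighbours between -1.09 (Fgfr2, by the far end of its long annotated body) and 0.16.

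Overlapping annotation limits some of these levels. Exons of Adam15 share 1263 bases with the antisense gene 4731419I09Rik, those of Adam17 share 311 with Iah1, and those of Adam8 share 46 with Gm16201. Exons of Adam19 share 587 and 480 bases with a pair of antisense genes. The library kit keeps strand, but whether counting used it is not known, so reads of these pairs may be shared. Exons of Adam9 and Adam10, like those of Adam12, share none.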

How the data were processed

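RNA-seq was available for 4 libraries of EpCAM-captured, cultured PyMT mammary tumour cells: PCNA 211F (n = 2) and PCNA WT (n = 2). The authors deposited 1 table of FPKM values, 1 column per library, with its unit given by its file name. The submitters' processing notes name TopHat2 2.0.13, DESeq2 and GRCm38 without saying what each was used for. Which program, annotation and strand setting gave the FPKM is not stated in those notes or the labels. FPKM sums were 544399 to 564977. FPKM divides by gene length and library total, so very abundant genes lower the others. Symbols were matched for 50369 identifiers (310 had none), and positions and sequences are from GENCODE M21.

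Values were analysed as log2(FPKM + 1). Genes averaging 1 FPKM or more were tested with limma 3.58.1 in R 4.3.3 (two-sided, intensity trend, Benjamini-Hochberg threshold 0.05), and the fit was tested on simulated data. That check required known changes to be recovered only at a spread smaller than that of most genes here. The ADAM genes, lists and rules for named genes were chosen with earlier results of these data known. The rule names the ADAM genes, all genes of lists of up to 8, the 4 widest differences of longer lists, the 8 profiles nearest to Adam12 and its neighbours within 1 Mb. A few of these are not reported here. Lists got no set test. Alternatives were other pseudocounts, filters and scalings, no trend, a replicate block and leaving out each library.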

Additional observations from a re-analysis of the deposited data

How the results depend on the processing

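The Adam12 difference of 3.05 was 3.25 with a pseudocount of 0.1 and 2.43 with a pseudocount of 5, and 2.93 to 3.16 when single libraries were left out. In the other alternatives it moved by less than the spread between replicates. The choice of Adam12 used these library values, so its small changes with libraries left out were fixed in advance. In all 12 alternatives, 0 genes passed the limma threshold in either direction. An unadjusted p under 0.05 was reached by 241 genes, and by 745 without a filter (25743 genes tested), 142 with the replicate block, and 226 to 843 with a library left out (843 without WT 1). Genes whose groups did not overlap numbered 1935 higher and 1485 lower, 2923 and 3343 without a filter, and 1600 and 1777 with upper-quartile scaling, which turned the balance. They numbered 3765 to 4484 higher and 3353 to 4481 lower with a library left out, where fewer values have to be apart.

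Among the other 6 ADAM genes, only Adam8 kept its sign in all 12 alternatives (0.01 to 1.67). The sign turned for Adam9 with quantile normalization (-0.00805), for Adam17 with a pseudocount of 5 (0.00207) and for Adam19 with a pseudocount of 0.1 (-0.38). With a library left out, the differences ranged from -0.96 to 1.12 for Adam9, from -0.43 to 1.07 for Adam10 and from -0.71 to 0.67 for Adam15. They ranged from -0.46 to 0.45 for Adam17 and from -1.88 to 2.02 for Adam19. No adjusted p of these 6 fell below 0.808. The replicate numbers are not said to pair libraries, and the correlation across genes of the deviations from the group means, between libraries with the same number, was -0.465. With the replicate block the differences were the same by construction. Fits that leave a group with a single library take its variance from the other group.

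No read counts are given, so depth was read only from the steps of low values, and counting error could not be modelled.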

Other observations

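The ADAMTS genes are secreted relatives of the ADAM genes that cut matrix proteins. The sign of their median difference depended on which libraries were used. Of 12 tested of 19 listed, 8 had a negative and 4 a positive difference, and limma called 0. Over all tested genes 53.1% had a positive difference. The median of the list was -0.66, beside 0.03 over all tested genes. The groups did not overlap in 3, with 211F lower in each, beside 11.6% of all tested genes. Adamts9 stood at 0.486 and 1.36 FPKM in 211F, against 7.20 and 4.84 in WT. Adamts7, a protease of cartilage and vessel matrix, stood at 2.40 and 2.79 FPKM in 211F, against 7.94 and 10.9 in WT. Adamts3, which trims procollagen, stood at 0.426 FPKM in 211F 1 and was listed at 0 in 211F 2, against 5.21 and 2.55 FPKM in WT. Adamts2, another procollagen protease, followed the mesenchymal markers instead, at 9.40 and 0.0208 FPKM in 211F and 0.910 and 20.1 in WT. The median of the list was 0.20 without WT 2 and 0.04 without 211F 2, but -1.10 without WT 1 and -1.32 without 211F 1.

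Bone and cartilage markers were looked at because Adam12 is used in the growing skeleton. Of 6, Runx2 and Sox9 passed the filter, and Bglap was listed at 0 in every library. Runx2 stood at 31.6 and 25.7 FPKM in 211F, against 11.4 and 29.4 in WT, and Sox9 at 36.8 and 96.9 FPKM in 211F, against 100.1 and 4.24 in WT. Fibroblast markers summed to 282 and 6.40 FPKM in 211F and to 51.7 and 1080 in WT. Different genes made up the high sums. Postn gave 235 FPKM in 211F 1 and 2.04 in WT 2, while Col1a1 gave 2.70 FPKM in 211F 1 and 437 in WT 2. Endothelial markers summed to at most 2.09 FPKM, lymphoid markers to at most 0.101 and adipocyte markers to at most 2.28.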
